A study of Mus musculus with 2 samples.

Results

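The genes of the Polycomb repressive complexes are represented here by 10 genes: Ezh2, Ezh1, Eed, Suz12 and Jarid2 of PRC2, and Rnf2, Bmi1, Cbx2, Cbx7 and Cbx8 of PRC1. They were chosen by name, with no measured value entering the choice, and all 10 were found by gene ID among the 43346 annotated genes. Whole liver was taken from B6NCrl mouse embryos at embryonic day 13.5, with males and females pooled, and 2 libraries form the 1 group of the study. Spike-in RNA was added to the input of each library, which was 10 ng of RNA over 200 nt in size. The 2 tissue samples are labelled as biological replicates but share a donor entry, and no genotype, treatment or control was compared. With 1 group no test between conditions is possible, so values are given for each replicate and as mean ± SD (n = 2), and the SD measures only the spread between these samples. Levels are in TPM, a per-length share of the RNA in a library, so that levels can be compared between genes.

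Polycomb proteins keep genes silent by modifying histones. PRC2 methylates lysine on histone H3 through its catalytic subunit, Ezh2 or its paralog Ezh1, held in a core with Eed, which reads the mark, and Suz12, the scaffold. PRC1 ubiquitinates histone H2A through the RING ligases Rnf2 or Ring1, each paired with a PCGF protein such as Bmi1, and its canonical forms carry a chromodomain protein of the CBX family that binds the PRC2 mark. Ezh2 is known as the form of dividing cells and Ezh1 as the form that persists in resting ones, and in the embryonic liver, where blood cells form beside hepatoblasts, Ezh2 and Bmi1 are known for roles in blood stem and progenitor cells. Since whole tissue was sequenced, a cell type being rarer and its cells holding less RNA of a gene cannot be told apart.

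The libraries held 39182457 and 37432977 expected counts on genes in replicates 1 and 2. The 10 Polycomb genes took 13563 of these counts in replicate 1 and 15006 in replicate 2. Markers of the liver's known cells were present, with Afp at 5630 and 6807 TPM and the erythroid gene Gata1 at 121 and 130 TPM in replicates 1 and 2. The 6 markers of dividing cells (Mki67, Top2a, Pcna, Cdk1, Ccnb1, Mcm2) had a median of 231 ± 17.7 TPM (SD, n = 2). The 5 cardiac markers (Actc1, Tnnt2, Myh6, Myh7, Myl7) all had higher TPM in replicate 2, where they summed to 88.1 TPM, against 36.4 TPM in replicate 1, and none was at 0.

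The following stretches of DNA are shown first because the results on levels and start sites refer to them. Each is the RefSeq promoter window on GRCm38.p6, from 250 bases before to 50 after the annotated start, 5′ to 3′ on the strand of the gene. Ezh2 and Ezh1 are the catalytic paralogs whose levels are compared, and the Jarid2 window ends 50 bases into its leading transcript. Capitals mark a match of the E2F-type motif TTTNGCGC in Ezh2 and of TATAAA in Jarid2. The windows are chr6:47594981-47595280 on the minus strand for Ezh2, chr11:101226414-101226713 on the minus strand for Ezh1, and chr13:44731021-44731320 on the plus strand for Jarid2.
Ezh2: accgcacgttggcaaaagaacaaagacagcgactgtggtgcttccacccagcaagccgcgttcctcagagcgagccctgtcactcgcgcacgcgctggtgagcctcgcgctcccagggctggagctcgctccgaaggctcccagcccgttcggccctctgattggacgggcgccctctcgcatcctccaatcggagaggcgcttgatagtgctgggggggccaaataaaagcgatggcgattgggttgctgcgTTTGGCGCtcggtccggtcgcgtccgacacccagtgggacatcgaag
Ezh1: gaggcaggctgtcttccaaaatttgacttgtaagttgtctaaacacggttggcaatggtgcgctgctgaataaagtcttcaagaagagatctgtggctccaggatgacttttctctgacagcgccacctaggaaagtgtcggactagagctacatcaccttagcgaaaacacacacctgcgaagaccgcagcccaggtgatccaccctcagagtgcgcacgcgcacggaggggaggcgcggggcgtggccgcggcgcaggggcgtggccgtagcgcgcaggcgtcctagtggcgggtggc
Jarid2: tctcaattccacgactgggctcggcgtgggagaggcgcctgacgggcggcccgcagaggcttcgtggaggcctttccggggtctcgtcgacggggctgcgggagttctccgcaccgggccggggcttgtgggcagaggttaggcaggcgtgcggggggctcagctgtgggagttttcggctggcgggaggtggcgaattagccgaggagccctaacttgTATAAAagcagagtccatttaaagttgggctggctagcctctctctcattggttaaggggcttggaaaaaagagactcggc

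Of the 10 genes, 9 reached 1 TPM in both libraries, and the exception was Cbx7, with 0.80 and 1.21 TPM in replicates 1 and 2. Over all annotated genes the share that reached this level was 28.1%, and over protein-coding genes it was 52.1%. With posterior mean TPM all 10 reached 1 TPM, Cbx7 with 1.71 and 2.22 TPM in replicates 1 and 2. In descending order the mean levels ran Ezh2, Eed, Rnf2, Suz12, Jarid2, Ezh1, Bmi1, Cbx2, Cbx8, Cbx7. Of the 9 pairs of neighbours in that order, 4 lay apart by more than the sum of their SDs: Ezh2 above Eed, Suz12 above Jarid2, Cbx2 above Cbx8 and Cbx8 above Cbx7. The other 5 pairs lay apart by less than the sum of their SDs, a rule that does not compare genes within a library. Within each library, Eed lay above Rnf2, Rnf2 above Suz12, Jarid2 above Ezh1 and Bmi1 above Cbx2. Only Ezh1 and Bmi1 changed order, with Ezh1 higher in replicate 1 and Bmi1 higher in replicate 2. Ezh2, Eed, Rnf2 and Suz12 lay above 11.4 TPM, the median of the mean level of genes at 1 TPM or more in both libraries, and the other 6 lay below it.

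**Figure D1:**
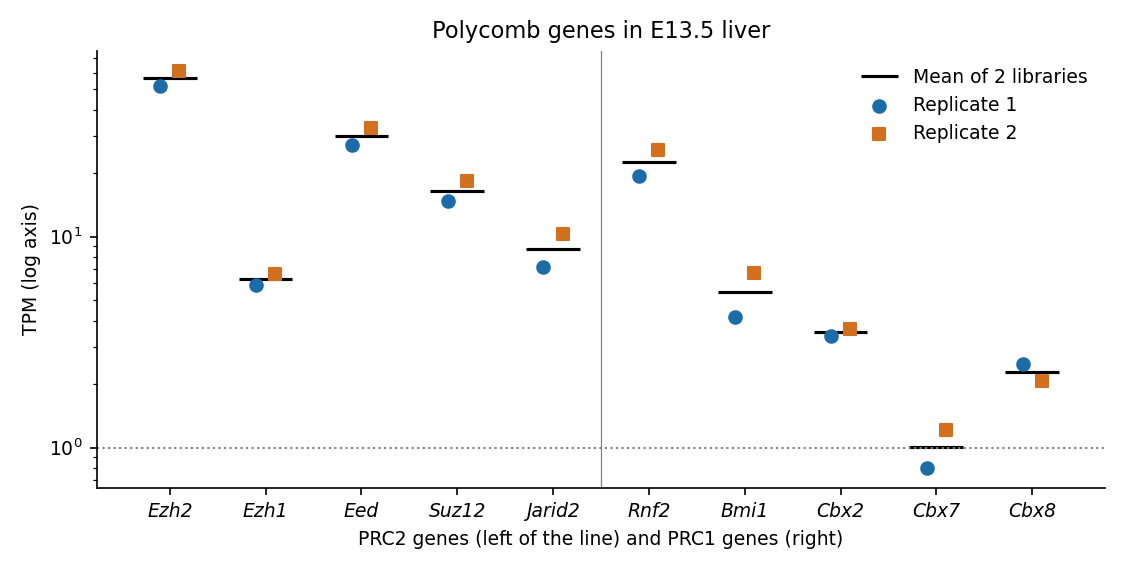
TPM of the 10 Polycomb genes on a log axis, with circles for replicate 1, squares for replicate 2 and a line at the mean of the 2 libraries; the dotted line is 1 TPM. Ezh2 stood highest at 51.6 and 61.3 TPM, and Cbx7 was lowest, at 0.80 and 1.21 TPM in replicates 1 and 2.

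Within PRC2, Ezh2 was the predominant catalytic transcript. Ezh2 (ENSMUSG00000029687.12, chr6:47530139-47595341, minus strand) had 51.6 and 61.3 TPM in replicates 1 and 2, from 3924 and 4052 expected counts. Ezh1 (ENSMUSG00000006920.10, chr11:101191115-101226463, minus strand) had 5.92 and 6.62 TPM in replicates 1 and 2, from 771 and 835 counts. The levels of the paralogs did not overlap, and the lower of them, Ezh1, still rested on 771 counts or more. The ratio of Ezh2 over Ezh1 was 8.71 in replicate 1 and 9.26 in replicate 2, a mean of 8.98 ± 0.391 (SD, n = 2), or 3.17 ± 0.06 on the log2 scale. Ezh2 therefore made up 90.0% ± 0.393 of the summed EZH level and Ezh1 the remaining 10.0% (SD, n = 2). Taken over reads without dividing by length, the ratio was smaller, at 2.31 on the log2 scale. With complete coding transcripts alone it was 2.85.

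Eed (ENSMUSG00000030619.8, chr7:89954654-89980983, minus strand), whose product reads trimethylated H3 and stimulates the enzyme, had 27.2 and 32.9 TPM in replicates 1 and 2. Suz12 (ENSMUSG00000017548.11, chr11:79993106-80034123, plus strand), which holds the core together, had 14.8 and 18.3 TPM in replicates 1 and 2. The core was thus uneven in RNA level, with Ezh2 above Eed and Eed above Suz12 in both libraries. Ezh2 over Eed was 1.88 ± 0.022, and Eed over Suz12 was 1.82 ± 0.033 (SD, n = 2). Ezh2 over Suz12 was 3.42 ± 0.102, while Ezh1 over Suz12 was 0.381 ± 0.028 (SD, n = 2). These ratios varied less between the libraries than the levels did, and all 4 genes had higher TPM in replicate 2. The histone-binding partners Rbbp4 and Rbbp7, which also serve other chromatin complexes, were far more abundant, at 281 ± 30.6 and 252 ± 20.2 TPM (SD, n = 2).

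Jarid2 (ENSMUSG00000038518.11, chr13:44729474-44921643, plus strand), an accessory subunit that helps bring PRC2 to chromatin, had 7.20 and 10.4 TPM in replicates 1 and 2. Set beside the other accessory subunits, it was the next after Mtf2, a Polycomb-like protein, which had 38.0 and 40.5 TPM in replicates 1 and 2. Over the 5 genes Jarid2, Aebp2, Mtf2, Phf1 and Phf19, Jarid2 made up 15.9% ± 2.76 of the TPM and Mtf2 71.5% ± 2.67 (SD, n = 2). Over reads, not divided by length, Jarid2 held 33.4% ± 2.62 and Mtf2 49.9% ± 1.70 (SD, n = 2). Jarid2 and Aebp2, which occur together in one form of PRC2, summed to 23.1% ± 3.40 of the TPM, and the 3 Polycomb-like genes Mtf2, Phf1 and Phf19 to 76.9% ± 3.40 (SD, n = 2). Aebp2 averaged 3.99 ± 0.679 TPM, Phf19 1.70 ± 0.042 TPM and Phf1 1.23 ± 0.120 TPM (SD, n = 2). Lcor, whose locus also yields an accessory subunit, averaged 4.35 ± 0.799 TPM (SD, n = 2). Epop, an accessory subunit known from embryonic stem cells, stayed below 1 TPM at 0.62 and 0.58 TPM in replicates 1 and 2. Ezhip, an inhibitor of PRC2 known from germ cells, had 0 counts in both libraries, and a count of 0 allows up to 0.0412 TPM in replicate 1 and 0.0459 TPM in replicate 2.

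Within PRC1, Rnf2 was the predominant RING ligase transcript. Rnf2 (ENSMUSG00000026484.9, chr1:151458004-151500955, minus strand) had 19.4 and 25.9 TPM in replicates 1 and 2. Its paralog Ring1 had 4.64 and 4.82 TPM in replicates 1 and 2, well below Rnf2 in each. Rnf2 over Ring1 was 4.77 ± 0.843, and Rnf2 made up 82.5% ± 2.56 of their sum (SD, n = 2). Rnf2 overlaps the protein-coding gene Trmt1l by 158 nt on the opposite strand, and whether counting used strand is not stated. Rnf2 had 2180 and 2653 counts in replicates 1 and 2, beside 1534 and 1613 for Trmt1l.

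Bmi1 (ENSMUSG00000026739.9, chr2:18677018-18686629, plus strand), also called Pcgf4 and a known factor in the self-renewal of blood stem cells, had 4.15 and 6.75 TPM in replicates 1 and 2. Among the 6 PCGF genes it was a minor component, at 8.80% ± 1.97 of their TPM (SD, n = 2). Pcgf5 held 34.3% ± 0.048, Pcgf1 24.9% ± 1.37, Pcgf6 17.5% ± 0.211, Pcgf3 9.95% ± 1.04 and Pcgf2 4.44% ± 1.90 (SD, n = 2). Bmi1 and Pcgf2, the PCGF proteins of canonical PRC1, together held 13.2% ± 0.070, and the 4 PCGF genes of variant PRC1 held 86.8% ± 0.070 (SD, n = 2). That small SD hides opposite differences, with Bmi1 at 7.41% and 10.2% and Pcgf2 at 5.78% and 3.10% in replicates 1 and 2. Bmi1 over Pcgf2 was 1.28 in replicate 1 and 3.29 in replicate 2, where Pcgf2 rested on 76 and 48 counts. The shares depend on transcript length, because over reads Bmi1 held 15.2%, Pcgf2 1.49% and Pcgf3 29.3% of the PCGF counts.

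**Figure D2:**
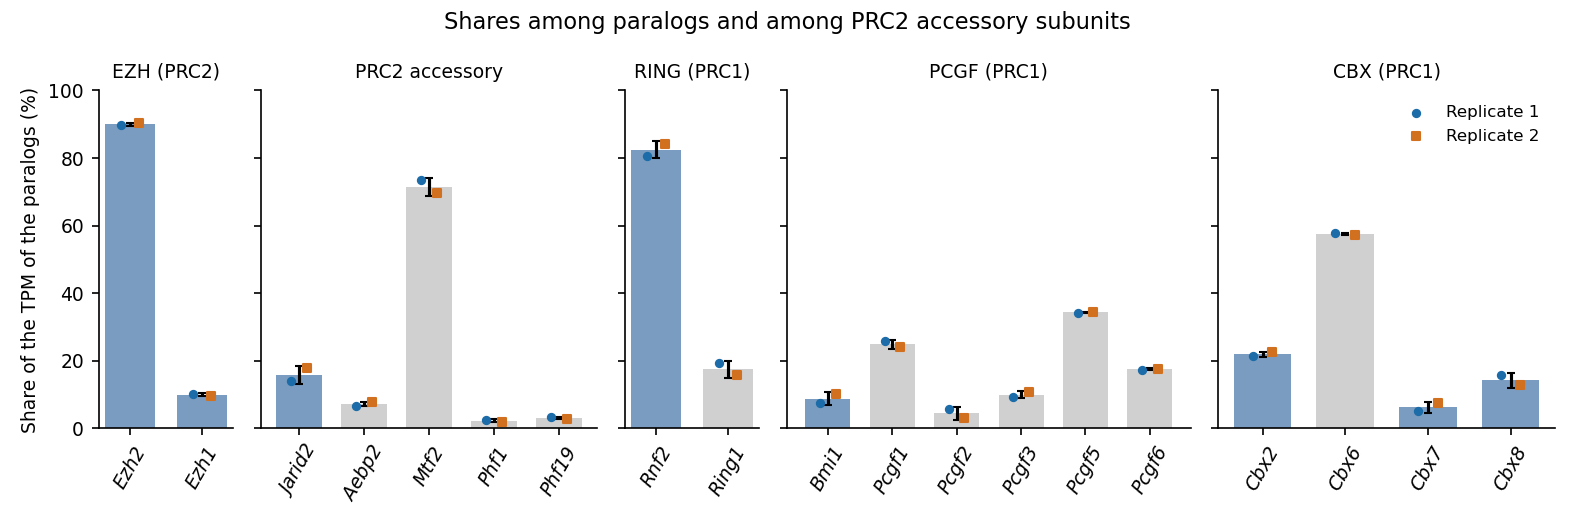
Share of each gene in the summed TPM of its group, in percent; bars are means of 2 libraries with SD, blue bars are among the 10 genes and grey bars are other genes, circles are replicate 1 and squares replicate 2. Ezh2 (90.0%) and Rnf2 (82.5%) lead their families, whereas Jarid2, Bmi1, Cbx2, Cbx7 and Cbx8 lie below another gene of their group.

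The CBX family presented the lowest of the 10 genes. Cbx2 (ENSMUSG00000025577.7, chr11:119022962-119031270, plus strand), a chromodomain protein that compacts chromatin, had 3.38 and 3.66 TPM in replicates 1 and 2. Cbx8 (ENSMUSG00000025578.9, chr11:119036305-119040969, minus strand), its paralog, had 2.50 and 2.07 TPM in replicates 1 and 2. Cbx7 (ENSMUSG00000053411.12, chr15:79915807-79971119, minus strand), known as the main Polycomb CBX protein of embryonic stem cells, rested on only 96 and 110 counts in replicates 1 and 2. Cbx6, which was not among the 10, was the highest of the 4 Polycomb CBX genes compared here at 9.13 and 9.34 TPM in replicates 1 and 2. It made up 57.6% ± 0.267 of the sum of the 4, followed by Cbx2 at 21.9% ± 0.780, Cbx8 at 14.3% ± 2.19 and Cbx7 at 6.25% ± 1.68 (SD, n = 2). All 3 neighbouring pairs of levels differed beyond their spread. Cbx6 and then Cbx2 led in every estimate of level tried, but the order of Cbx8 and Cbx7 changed. With protein-coding transcripts alone Cbx8 averaged 0.735 ± 0.148 TPM and Cbx7 0.950 ± 0.297 TPM (SD, n = 2). These means lay apart by less than the sum of their SDs, though Cbx7 was the higher in each library.

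The summed level of these 4 Polycomb CBX genes was nearly equal in the libraries, at 15.8 and 16.3 TPM in replicates 1 and 2. Relative to Rnf2 it was 0.723 ± 0.132 (SD, n = 2). It was small beside that of Cbx1, Cbx3 and Cbx5, the HP1 members of the wider CBX family that bind a different histone mark, which summed to 354 and 410 TPM in replicates 1 and 2. The ratio of the Polycomb to the HP1 sum was 0.0422 ± 0.0035 (SD, n = 2). Cbx2 and Cbx8 lie 5.034 kb apart on chromosome 11, and Cbx7 lies 81.1 kb from Cbx6 on chromosome 15. Cbx7 overlaps Apobec3 by 100 nt on the opposite strand. Apobec3 had 2846 and 3160 counts in replicates 1 and 2, many times those of Cbx7, and its part in the Cbx7 count was not tested.

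The rest of the Polycomb system and the genes that oppose PRC2 were broadly present. The 56 other genes in 8 lists, called the other Polycomb genes here, include 6 demethylases and methyltransferases that oppose PRC2. Of the 56, 51 reached 1 TPM in both libraries, beside 28.1% of all annotated genes and 52.1% of protein-coding genes. All 6 opposing genes reached 1 TPM in both libraries. Below 1 TPM in both were Epop, Ezhip, Scml2 at 0.61 and 0.78 TPM and Sfmbt2 at 0.28 and 0.31 TPM in replicates 1 and 2, while Fbrsl1 was below it in replicate 1 alone, at 0.95 TPM. The median of the 10 genes was 7.56 ± 1.41 TPM, and that of the 56 was 5.50 ± 0.364 TPM (SD, n = 2). Among further canonical PRC1 genes the highest were Scmh1 at 11.7 ± 0.092 TPM, the polyhomeotic gene Phc2 at 10.2 ± 1.91 TPM and Cbx6 (SD, n = 2). In variant PRC1 they were Skp1a at 377 ± 52.2 TPM, a subunit shared with ubiquitin ligases, Yaf2 at 32.2 ± 0.955 TPM and Wdr5 at 30.5 ± 2.30 TPM (SD, n = 2). Yaf2 over its paralog Rybp, which competes with CBX proteins for RING, was 6.35 ± 1.04 (SD, n = 2).

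The deubiquitinase complex PR-DUB is counted here among the other Polycomb genes. It was led by Ogt at 44.1 ± 6.08 TPM, the catalytic subunit Bap1 at 37.5 ± 2.89 TPM and Hcfc1 at 32.5 ± 2.13 TPM (SD, n = 2). PhoRC is a DNA-binding Polycomb complex. Its genes Yy1 and Sfmbt1 were at 13.0 ± 1.88 and 12.7 ± 1.18 TPM (SD, n = 2). Of the demethylases and methyltransferases that oppose PRC2, Kdm6a was highest at 11.2 ± 3.70 TPM, followed by Kmt2c at 5.34 ± 0.453 TPM and Kdm6b at 4.45 ± 0.141 TPM (SD, n = 2).

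Of 15 genes known as Polycomb targets in other tissues, mostly regulators of neural and mesodermal fate, 1 reached 1 TPM in both libraries, beside 28.1% of all annotated and 52.1% of protein-coding genes. It was Lhx2, at 2.64 and 2.40 TPM in replicates 1 and 2, a gene also used by liver mesenchyme. The other 14 were below 1 TPM in both libraries, and 11 of the 15 had no more than 3 counts in either, beside 55.8% of all annotated and 27.8% of protein-coding genes. Cdkn2a, the cell-cycle inhibitor locus that is the best known target of Bmi1, had 0 counts in both, which allows up to 0.102 TPM in replicate 1 and 0.114 TPM in replicate 2. Olig2, Neurog1 and Foxd3 also had 0 counts in both. Next to Lhx2 came Cdkn2b, at 0.16 and 0.25 TPM in replicates 1 and 2. No histone mark was measured here, so these values are levels of RNA only.

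**Figure D3:**
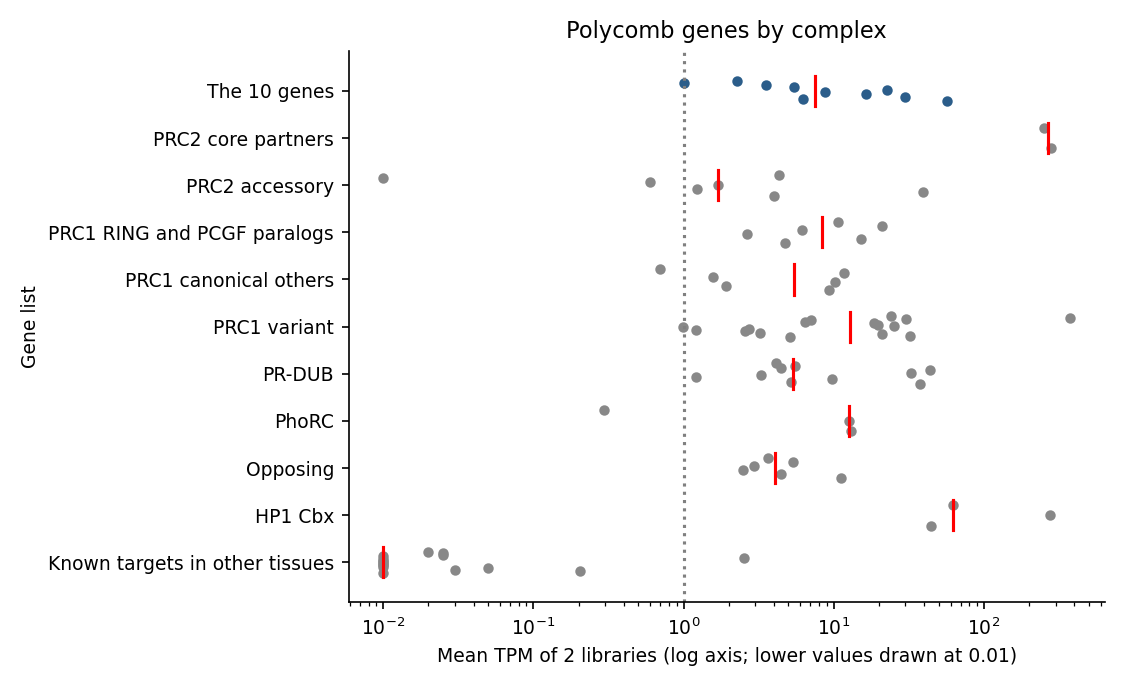
Mean TPM over 2 libraries on a log axis, for the 10 genes (top row, blue) and the lists of other genes (grey); each point is a gene, red ticks are list medians, the dotted line is 1 TPM, and values under 0.01 are drawn at 0.01. The median of the 10 genes was 7.56 TPM, and of the 15 known targets Lhx2 alone lay right of the dotted line.

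By its mean over the 2 libraries, the leading transcript exceeded 80% of the gene's TPM in 4 of the 10, Eed, Rnf2, Bmi1 and Cbx2, beside 40.3% of genes with 2 or more transcripts at 1 TPM or more, a share like that of the 10. Of these Bmi1 was past 80% in replicate 1 alone. The count was 6 over reads in place of TPM and 3 with posterior mean TPM. All 10 leaders were past 50%, beside 78.1% of the same genes. The same transcript led in both libraries for all 10, and 9 of the leaders were protein-coding. With posterior mean TPM the leader stayed the same in 9, and Cbx7 was the exception. Eed-201 held 99.3% ± 0.026, Rnf2-201 94.7% ± 1.86 and Cbx2-201 100% of their genes (SD, n = 2).

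Ezh2-201, which encodes 746 codons, held 57.5% ± 1.11 of Ezh2 (SD, n = 2). The short Ezh2-205, of 866 nt and with an incomplete coding end in the annotation, held 20.95% in replicate 1 and 26.6% in replicate 2. Over reads its share was 9.25%, since a short transcript receives a higher TPM per read. Ezh2-202, singled out after its values were seen, encodes 704 codons and held 10.2% and 7.52% in replicates 1 and 2, from 400 and 316 counts with posterior SDs of 49.8 and 45.7. It lacks coding exon 14 of Ezh2-201, of 126 nt, at chr6:47541845-47541970 on the minus strand of GRCm38. Suz12-201, of 741 codons, held 59.2% ± 3.54 of Suz12 (SD, n = 2). Suz12-206, of 718 codons, held 22.8% and 17.9% in replicates 1 and 2. It lacks coding exon 4, of 69 nt, at chr11:79999057-79999125 on the plus strand. These cassette exons carry the coding difference of Ezh2-201 from Ezh2-202 and of Suz12-201 from Suz12-206, while other coding forms of Ezh2 differ elsewhere. They are printed whole, 5′ to 3′ from the GENCODE transcripts.
Ezh2 exon 14: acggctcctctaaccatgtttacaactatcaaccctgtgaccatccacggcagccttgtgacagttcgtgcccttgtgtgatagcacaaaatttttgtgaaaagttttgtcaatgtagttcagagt
Suz12 exon 4: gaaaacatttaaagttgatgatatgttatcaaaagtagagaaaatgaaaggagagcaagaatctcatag

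The 2 Suz12 coding forms share nearly all of their sequence, and their counts of 1355 against 537 in replicate 1 and 1642 against 468 in replicate 2 carried posterior SDs of 145 to 211 counts. Suz12-203, a retained-intron transcript of 651 nt, held 15.8% and 15.0% in replicates 1 and 2. Over reads its share was 2.43%, from 48.8 and 51.7 counts in replicates 1 and 2. Ezh1-203, of 750 codons, held 78.8% ± 3.93 of Ezh1 (SD, n = 2), but 40.5% by posterior mean, where 31.8% went to Ezh1-202. Those 2 transcripts differ by 13 nt at the start and 1 nt at the end, so reads could hardly be divided between them.

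Jarid2-208 held 86.0% of Jarid2 in replicate 1 and 69.3% in replicate 2. Its annotated start, at position 44731271 of chromosome 13, is the start used for the Jarid2 window printed above. Bmi1-201 held 100% and 67.3% of Bmi1 in replicates 1 and 2, and Bmi1-202 the remaining 0% and 32.7%. Both Bmi1 transcripts encode 324 codons and differ outside the coding part. The posterior SD of Bmi1-202 was 22.4 counts on 0 in replicate 1 and 60.6 counts on 199 in replicate 2. Cbx7-203, the short form of 158 codons, held 62.5% and 46.7% of Cbx7, and Cbx7-201, the long form of 251 codons, 30.0% and 32.5% in replicates 1 and 2. Each rested on fewer than 54 counts. Cbx8 was the gene with most noncoding signal: the processed transcript Cbx8-202 held 61.4% and 48.3%, the coding Cbx8-201 25.1% and 40.6%, and Cbx8-203 13.5% and 11.1% in replicates 1 and 2. Over reads the coding Cbx8-201 led, at 71.6%. Cbx8-203 rested on 5.51 and 3.38 counts in replicates 1 and 2, with posterior SDs of 6.26 and 4.37.

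**Figure D4:**
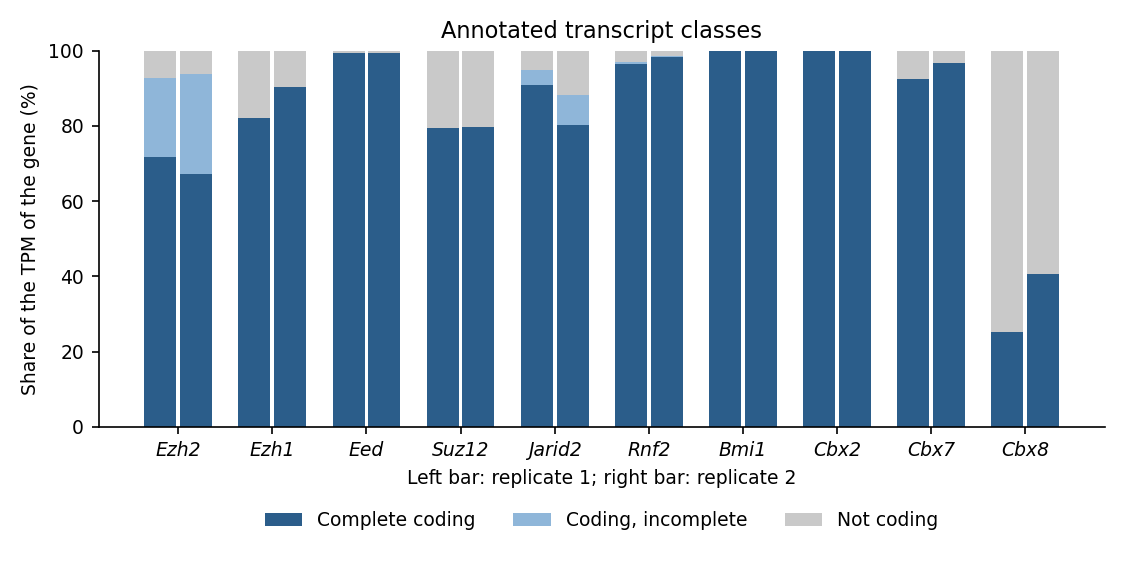
Share of the TPM of each gene in complete protein-coding transcripts (dark blue), protein-coding transcripts marked incomplete (light blue) and noncoding transcripts (grey), in percent, with replicate 1 left and replicate 2 right. Cbx8 stands out with 25.1% and 40.6% coding in replicates 1 and 2, whereas Bmi1 and Cbx2 were wholly coding.

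RefSeq promoter windows were found for 9 of the 10 genes, with 2 for Jarid2, which gave 10 windows. All 10 had a ratio of observed to expected CpG above 0.6, a share of 100% beside 35.8% of all 32851 promoter windows and 69.0% of those of genes at 1 TPM or more in both libraries. Their median GC content was 65.2%, with a range of 54.7% to 72.7%, beside 52.7% over all windows and 60.7% over those of genes at 1 TPM or more. The E2F-type motif TTTNGCGC, searched on both strands, was present in 1 of the 10 windows, that of Ezh2, beginning at base 4 counted from the annotated start. It was present in 1.38% of all windows and 2.44% of those of genes at 1 TPM or more. TATAAA, also searched on both strands, was present in 1 of the 10, the Jarid2 window printed above, beginning 31 bases before the start. It was present in 13.6% of all windows and 7.14% of those of genes at 1 TPM or more. The Ezh1 window held neither motif, and no matches of the 2 motifs overlapped in the windows of the 10 genes. These matches describe letters in the windows and were not tested as sites.

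Between the replicates, none of the 10 genes differed by more than 1.5-fold after TMM scaling of counts, where 8.11% of the 15997 genes averaging 10 counts or more did. Bmi1 had the largest ratio of replicate 2 over replicate 1, at 1.35 with a 95% counting interval of 1.21 to 1.51, from 739 against 549 counts. Rnf2 followed at 1.22, with an interval of 1.15 to 1.29. The intervals of Suz12 (1.12), Jarid2 (1.14) and Eed (1.09) also lay above 1, which made 5 of the 10, beside 21.1% of the genes tested, and those of Ezh2, Ezh1, Cbx2, Cbx7 and Cbx8 included 1. The intervals cover counting error only, as reads are not independent molecules, so they do not measure variation between livers. With TMM scaling 8 of the 10 were higher in replicate 2, Cbx2 and Cbx8 being the exceptions, beside 51.4% of the genes tested, with a median log2 ratio of 0.14, beside 0.00 over all genes tested. Scaled by the spike-ins instead, which lowered the median of all genes to -0.57, all 10 were lower in replicate 2, beside 96.5% of the genes tested, with a median of -0.43. Cbx2 and Cbx8 were then past 1.5-fold, beside 47% of the genes tested.

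The deposited TPM gave other ratios. By TPM 9 of the 10 were higher in replicate 2, beside 72.2% of the genes tested, with a median log2 ratio of 0.29, beside 0.15 over all genes tested. Bmi1 at 1.63-fold and Cbx7 at 1.51-fold were then past 1.5-fold, beside 10.2% of the genes tested. In Bmi1 this went with Bmi1-202, listed at 0 in replicate 1 and at 2.21 TPM in replicate 2. With TMM scaling all 5 cardiac markers were also higher in replicate 2, by a median of 1.99 on the log2 scale, as were all 5 endothelial markers (median 0.23) and all 5 stem and progenitor markers (median 0.19). Spike-in scaling lowers each log2 ratio by 0.57, which puts the endothelial and progenitor medians below 0 and leaves the cardiac median above it. With TMM scaling the median log2 ratio was 0.07 for the hepatoblast markers (3 of 5 higher), -0.04 for dividing cells (2 of 6), -0.07 for mesenchymal (2 of 5), -0.08 for macrophage (1 of 5), -0.10 for erythroid (1 of 4) and -0.48 for neuronal markers (1 of the 3 with enough counts). The part of any of these in the ratios of the Polycomb genes was not tested.

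**Figure D5:**
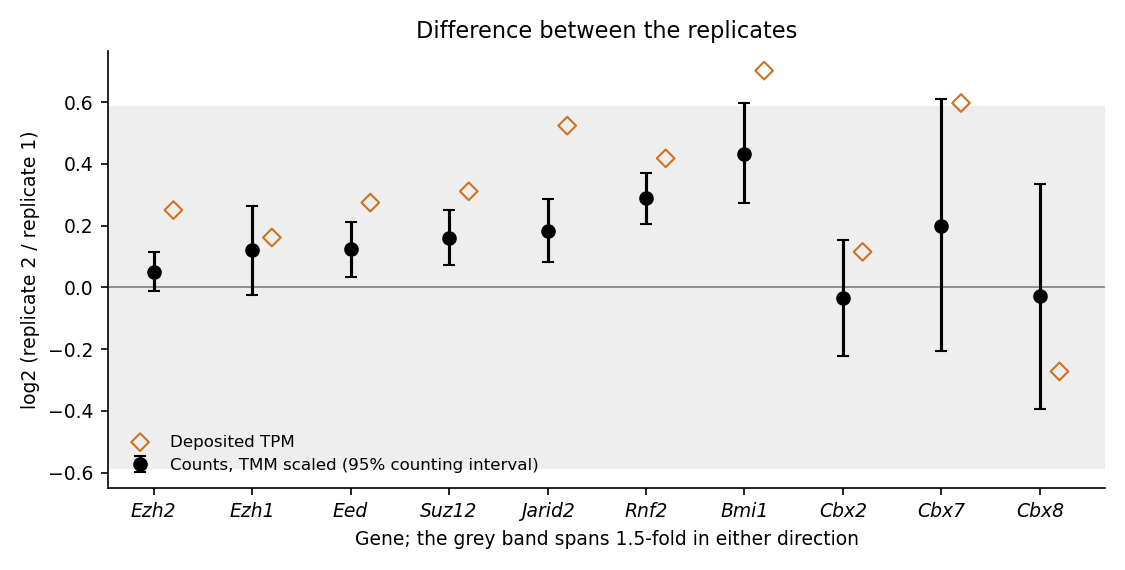
Log2 ratio of replicate 2 over replicate 1 for the 10 genes; filled points are counts with TMM scaling and their 95% counting intervals, open diamonds are ratios of deposited TPM, and the grey band spans 1.5-fold in either direction. All filled points lie within the band, the highest being Bmi1 at 0.43, and the diamonds of Bmi1 and Cbx7 lie above it.

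Of the other Polycomb genes, those opposing PRC2 included, 55 had enough counts for this comparison. Of the 55, 2 were past 1.5-fold, beside 8.11% of all genes tested, and both were lower in replicate 2. They were Pcgf2, the paralog that fills the same place as Bmi1 in canonical PRC1, at -0.65 on the log2 scale, and Phc2 at -0.59. The median of the 55 was -0.0047 on the log2 scale with TMM scaling. Of them 27 were higher and 28 lower in replicate 2, where 51.4% of all genes tested were higher. Bmi1 and Pcgf2 thus differed in direction with TMM scaling, at 0.43 and -0.65 on the log2 scale, whereas with spike-in scaling Bmi1 was also lower, at -0.14.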

How the data were processed

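Total RNA of embryonic liver was sequenced in 2 libraries. The deposited readme names mm10 and GENCODE release M4 for the quantification, and the sources used here do not give the aligner, the quantifier or the use of strand. Expected counts are the authors' estimates of reads per gene and transcript, per the file headers. They were used without rounding, except that the TMM and DESeq2 factors came from rounded counts. TPM was normalised by the authors per length and per library. FPKM columns were deposited and gave no printed value. The posterior SD of a count is a score column deposited beside it. The percent of a gene in each transcript is deposited and was recomputed here from TPM.

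Symbols and coordinates came from GENCODE M21 (GRCm38) by gene ID, which named 42462 of 43346 genes. Of the 73 annotated transcripts of the 10 genes, 5 have another length in M21 than in the files. Exon sequences came from the M21 transcripts and promoters from RefSeq (GRCm38.p6). Ratios between replicates used counts plus 0.5 with TMM factors from edgeR 4.0.16. DESeq2 1.42.0 size factors, the spike-ins and the deposited TPM were alternatives. Counting intervals are exact 95% binomial intervals, and a floor is 3 counts per library. Depth was 39644066 and 38150988 counts in all, and counting error is largest for Cbx7 and Cbx8, which have the fewest counts of the 10. The ratio step was tested on simulated counts with as many genes raised as lowered. That test cannot decide between TMM and spike-in scaling of the real libraries.

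All 10 genes are named, with their paralogs filling the same position, the 3 highest genes of each other list and all below 1 TPM, and each transcript of at least 10% of a gene. Of the known targets, Cdkn2b and those at 0 are named. A few genes that the rule names are not reported here and were left out of the lists and sums, the Polycomb CBX sum included. Genes and lists were chosen with earlier results of these data known. With 1 group no p-value was computed.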

Additional observations from a re-analysis of the deposited data

How the results depend on the processing

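The log2 ratio of Ezh2 over Ezh1, 3.17, was above 0 in every setting run: 3.06 with posterior mean TPM, 3.28 with protein-coding transcripts, 2.98 with 1 TPM added, 2.31 from expected counts not divided by length, and 3.12 to 3.21 with 1 replicate left out. Alternatives chosen after seeing the data gave 2.85 with complete protein-coding transcripts and 2.999 with all reads on the longest transcript. The Cbx6 share of the 4 Polycomb CBX genes, 57.6%, was 55.6% with posterior mean TPM, 61.5% with protein-coding or complete protein-coding transcripts, 55.7% with the longest transcript, 64.9% from counts and 57.4% to 57.7% with 1 replicate left out. The count of 9 of the 10 genes at 1 TPM in both libraries was 10 with posterior mean TPM, 10 at 0.5 TPM and 6 at 5 TPM. Of the other Polycomb genes, those opposing PRC2 included, 30 reached 5 TPM in both libraries, against 51 at 1 TPM. Between replicates, 2 of the 10 genes (Bmi1, Cbx7) were past 1.5-fold by deposited TPM and 2 others (Cbx2, Cbx8) with spike-in scaling, and with DESeq2 size factors there were 0. With a limit of 50% in place of 80%, all 10 genes had a leading transcript past it, and at 80% the count of 4 was 6 over reads, 3 with posterior mean TPM and 4 to 5 with 1 replicate left out. Of the TPM levels of the 10 genes, 3 moved by more than 1 SD with protein-coding transcripts, 1 with posterior mean TPM, 4 with complete protein-coding transcripts and 6 with the longest transcript, and those of Cbx7 and Cbx8 moved most. No paired analysis was possible because the study has 1 group. Counts of about 100 limit what can be said of Cbx7 and Cbx8, and 2 libraries limit every SD.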

Other observations

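The H3 demethylase Kdm6a is X-linked and has a Y-linked paralog, Uty, which was chosen after its values were seen. Kdm6a had 2543 counts in replicate 2 and 1749 in replicate 1, a ratio after TMM scaling of 1.46 with a 95% counting interval of 1.37 to 1.55. Uty had 441 counts in replicate 2 and 545 in replicate 1, a ratio of 0.812 with an interval of 0.714 to 0.922. With spike-in scaling the ratios were 0.982 for Kdm6a and 0.547 for Uty, so the direction for Kdm6a depends on the scaling. Each library pools male and female embryos, and the share of each sex is not given in the labels used here. The part of that mixture in these ratios was not tested.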
